A study of Rattus norvegicus with 6 samples.

Results

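The genes described here are 35 that adult hepatocytes transcribe at high levels, most of them for proteins secreted into the plasma, and they were read in 6 pools of rat kidney RNA. They were chosen because albumin and other liver transcripts had stood out on the array of 1 pool, so the list was chosen by the signals of that array, and its values there are given as a description with no test. All probe sets whose single platform gene symbol was on the list were taken, dim ones included. These were 39 of 31042 probe sets, for 33 of the 35 genes, out of 14217 genes with a probe set of their own. The remaining 2 genes, Tf (transferrin) and Kng1 (kininogen), were annotated only on probe sets that carry several gene symbols, from which no gene was read.

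The comparison was of 3 S pools with 3 congenic pools, each made from the kidney RNA of 2 male rats and hybridised to 1 Affymetrix whole-genome rat array. S rats are Dahl salt-sensitive rats, an inbred strain that becomes hypertensive on salt. The congenic strain carries a segment of rat chromosome 9 of the R strain on the same Dahl S background and so shares all other loci with the S rats. The rats of both strains shared a birth date and cages, left their mothers at 30 days, ate a diet with 2% salt and were killed at 53 days of age. The values are MAS5 signals, a linear measure of brightness that combines the probes of a probe set, and all arrays had been scaled to one trimmed mean of 150. Because a pool mixes 2 rats, a level that differs between pools cannot be traced to 1 animal.

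Hepatocytes make most of the proteins of blood plasma, among them albumin, the clotting factors, the lipid-carrying apolipoproteins and the inhibitors that restrain plasma proteases. They also hold the urea cycle and the breakdown of aromatic amino acids. Transcription of these genes in liver rests on a small set of factors, including HNF1, HNF4 and the C/EBP family, of which the HNF factors are also active in the proximal tubule of the kidney. The proximal tubule takes up filtered plasma proteins by endocytosis and shares a part of the amino acid and lipid enzymes with liver.

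The labelled tissue was borne out by its markers on every array. Of 18 measured genes of the nephron, such as Umod of the thick ascending limb and Lrp2 of the proximal tubule, 15 had a signal of 100 or more on all 6 arrays. Their summed signal was 38618 on congenic replicate 1 and 37518 to 39554 on the other 5. For actin, the ratio of 3' to 5' probe set signal, which increases as RNA degrades, was 6.15 on congenic replicate 1 and 6.54 to 9.42 elsewhere. For Gapdh the same ratio was 1.628 on congenic replicate 1, within the range of 1.505 to 1.767 elsewhere. Congenic replicate 3 stood apart through genes of the adrenal cortex, with 8 of 11 adrenal probe sets over 2-fold higher than elsewhere (0.135% of all probe sets were) and a summed signal of 9625 where the others had 860 to 949. On congenic replicate 1 no adrenal probe set was 2-fold higher.

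Hepatocyte transcripts were at high levels on congenic replicate 1 and, for most of the genes, at low levels on the other 5 arrays. Differences are given as log2(signal + 16) on that array minus the average of the remaining 5, a scale on which 1 is 2-fold and dim values are damped. By this measure 32 of the 39 probe sets and 30 of the 33 genes exceeded 2-fold. Over all probe sets 0.380% did so, or 118. The median difference of the 39 was 2.64, against 0.0058 over all probe sets. Congenic replicate 1 was the highest of the 6 arrays for 36 of the 39, where 18.7% of all probe sets had their maximum there. No member was over 2-fold lower there, as 0.0258% of all probe sets were. On each of the remaining arrays 0 members exceeded 2-fold by the same measure, where 0.0193%, 0.0161% and 0.00966% of all probe sets did on S replicates 1 to 3, 0.00966% on congenic replicate 2 and 0.135% on congenic replicate 3.

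The summed signal of the 39 probe sets was 28005 on congenic replicate 1, or 0.428% of that array's total signal. The S pools had sums of 9253, 8899 and 7940, and congenic replicates 2 and 3 had 8299 and 8438, which is 0.123% to 0.142% of the total. Congenic replicate 1 was thus apart from both the S pools and the pools of its own strain, which overlapped each other. The albumin probe sets made up 37.1% of the sum on that array, and without them it was 17604, against 7858 to 9211 on the others. In pooled tissue RNA more cells of a type and more RNA of these genes per cell cannot be told apart.

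**Figure D1:**
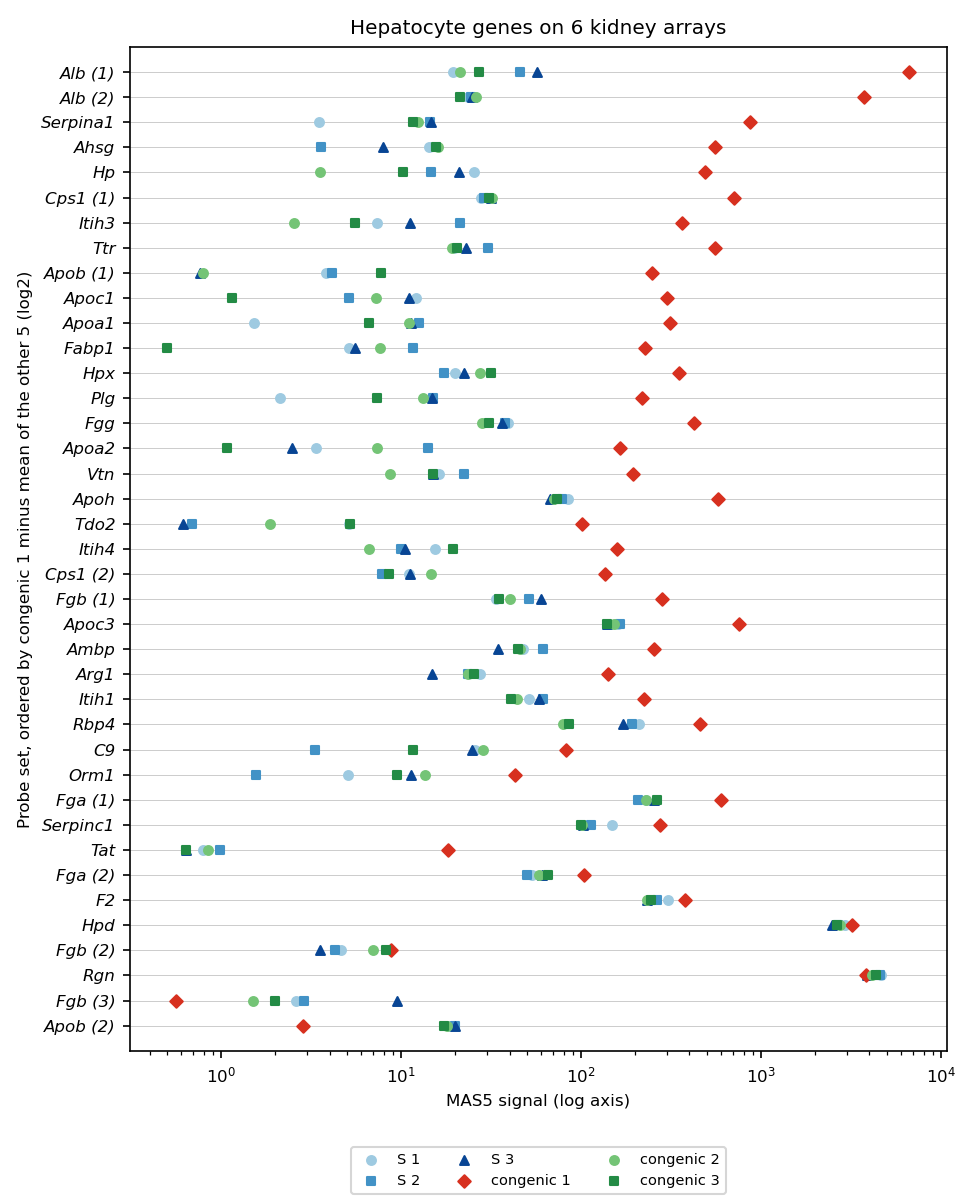
MAS5 signal (log axis) of the 39 probe sets on each of the 6 arrays, 1 row per probe set, ordered by the difference between congenic replicate 1 and the mean of the other 5 arrays, with a number in parentheses where a gene has several probe sets. The red diamonds of congenic replicate 1 lie to the right of all other points in 36 rows, and in the row of Rbp4 the S points (171 to 210) lie apart from congenic replicates 2 and 3 (79.6 and 85.8).

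Among the carrier proteins of the plasma, albumin had the largest difference of the list. Alb, the gene of albumin, measured 19.3, 45.5 and 56.7 on the S arrays, 6683 on congenic replicate 1 and 21.2 and 26.9 on congenic replicates 2 and 3, a difference of 7.13 on the log2 scale. Its second probe set measured 23.6, 24.4 and 24.8 in S, 3719 on congenic replicate 1 and 25.9 and 21.3 on the other congenic arrays. Both probe sets put the 2 remaining congenic pools within or next to the range of the S pools.

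All 8 measured carriers, on 9 probe sets, lay more than 2-fold above the other arrays on congenic replicate 1. Ahsg, the gene of fetuin-A, a binder of calcium phosphate, measured 557 there and 3.59 to 16.1 on the other 5. Hp (haptoglobin), which captures free haemoglobin, measured 490 against 3.54 to 25.3, and Hpx (hemopexin), which captures free haem, 351 against 17.3 to 31.7. For these 3 genes none of the other 5 arrays reached a signal of 100.

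Ttr encodes transthyretin, the carrier of thyroxine and of retinol-binding protein. It measured 19.6, 30.4 and 22.8 on the S arrays, 555 on congenic replicate 1 and 19.1 and 20.4 on the other congenic arrays. Ambp, the gene of alpha-1-microglobulin and bikunin, measured 254 against 34.6 to 61.0. Orm1, the gene of the acute phase protein orosomucoid, measured 43.1 against 1.56 to 13.5 and so stayed dim on every array. Rbp4 is the gene in this group with the highest signals on the other 5 arrays, and it is taken up further on.

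The promoters of albumin and of the 3 fibrinogen chains are shown because these genes are the textbook hepatocyte transcripts of the list and moved together on 1 array, while one of them, Fga, also had signal in every kidney pool. Each is the run of 150 bases before the annotated gene start in RefSeq, assembly GRCr8, 5′ to 3′ on the gene's strand. Capitals mark the short HNF1 motif GTTAAT and the C/EBP pattern TTGCNNAA, each on either strand, and the TATA box TATAAA on the gene's strand, and no matches overlap. Alb lies on the minus strand at chr14:17906980-17907129, Fga on the plus strand at chr2:170672019-170672168 (the first of 2 annotated starts), Fgb on the minus strand at chr2:170700876-170701025 and Fgg on the plus strand at chr2:170652933-170653082.
Alb: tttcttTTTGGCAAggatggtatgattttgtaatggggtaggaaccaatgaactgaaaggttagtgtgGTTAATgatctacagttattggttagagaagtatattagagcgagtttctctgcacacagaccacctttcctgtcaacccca
Fga: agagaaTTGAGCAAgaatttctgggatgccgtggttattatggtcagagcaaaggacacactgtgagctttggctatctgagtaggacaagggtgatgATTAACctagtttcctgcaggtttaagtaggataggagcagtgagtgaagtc
Fgb: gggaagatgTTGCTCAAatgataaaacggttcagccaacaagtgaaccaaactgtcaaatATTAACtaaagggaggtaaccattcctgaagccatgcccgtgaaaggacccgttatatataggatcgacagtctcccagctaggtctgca
Fgg: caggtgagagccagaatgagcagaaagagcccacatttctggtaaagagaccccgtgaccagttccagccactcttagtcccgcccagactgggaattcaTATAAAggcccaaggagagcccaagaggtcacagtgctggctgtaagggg

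Alb, Fga and Fgb hold both the short HNF1 motif and the C/EBP pattern in these windows, with the short motif starting 82, 52 and 90 bases before the gene start, and Fgg holds the TATA box instead. Over the 250 bases before each start, 9 of the 28 list genes with a RefSeq promoter held that motif, on 11 of 30 promoters (36.7%), where 6.45% of all 33469 promoters did. The C/EBP pattern was on 43.3% of the list's promoters and 9.22% of all, and the TATA box on 23.3% and 8.06%. The full palindromic HNF1 motif was on none of the 30 and the HNF4 pattern CAAAGTCCA on the promoter of Cps1 alone, where 0.00299% and 0.338% of all promoters held them. A match is a run of letters and not evidence that a factor binds there.

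Fibrinogen is built from 3 chains whose genes lie side by side on chromosome 2. Fgg, the gamma chain, measured 39.3, 37.7 and 36.5 in S, 423 on congenic replicate 1 and 28.1 and 30.8 on congenic replicates 2 and 3. Fgb, the beta chain, measured 281 on congenic replicate 1 and 33.5 to 59.6 on the others in its brightest probe set. For Fga, the alpha chain, the values were 228, 206 and 253 in S, 599 on congenic replicate 1 and 229 and 264 on the other congenic arrays. So Fga alone of the chains had a signal over 100 in all kidney pools, with a difference of 1.29 on congenic replicate 1 where Fgg had 3.13 and Fgb 2.33. In units of signal, the rise over the mean of the other 5 arrays was 363 for Fga, 388 for Fgg and 237 for Fgb.

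The probe sets of a gene did not always move alike. The other 2 probe sets of Fgb were dim on every array, at 8.83 and 0.56 on congenic replicate 1 and at 3.53 to 8.27 and 1.49 to 9.46 on the others. Apob, the gene of the structural protein of very low density lipoprotein, measured 249 against 0.77 to 7.74 in one probe set and 2.84 against 17.2 to 20.0 in the other, so that the probe sets moved in opposite directions. A second probe set of Fga measured 104 on congenic replicate 1 and 50.2 to 65.7 elsewhere.

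Of the clotting and complement genes, 4 of the 5 measured lay above 2-fold. Plg (plasminogen), the precursor of the enzyme that dissolves fibrin, measured 218 on congenic replicate 1 and 2.12 to 15.0 on the other 5 arrays. Vtn (vitronectin) measured 195 against 8.69 to 22.2, and C9, the last component of the complement pore, 82.6 against 3.32 to 28.4. Apoh, the gene of beta-2-glycoprotein I, measured 84.6, 77.8 and 66.8 in S, 578 on congenic replicate 1 and 70.4 and 73.5 on the other congenic arrays. The exception was F2 (prothrombin), at 304, 264 and 232 in S, 378 on congenic replicate 1 and 233 and 243 on the others, a difference of 0.54.

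All 5 protease inhibitors and inter-alpha-trypsin inhibitor heavy chains were above 2-fold. Serpina1, the gene of alpha-1-antitrypsin, which restrains neutrophil elastase, measured 3.51, 14.5 and 14.6 in S, 872 on congenic replicate 1 and 12.4 and 11.7 on the other congenic arrays. Serpinc1 (antithrombin), the inhibitor of thrombin, measured 148, 114 and 102 in S, 275 on congenic replicate 1 and 101 and 99.3 on the others. Its difference of 1.19 was among the smallest above the line, whereas that of Serpina1 was 5.04. The heavy chains Itih3, Itih4 and Itih1 measured 363, 158 and 225 on congenic replicate 1. They had ranges of 2.54 to 21.1, 6.66 to 19.3 and 40.5 to 61.4 on the other arrays.

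Each of the 5 apolipoproteins had a probe set more than 2-fold above the other arrays. Apoa1 and Apoa2, the main proteins of high density lipoprotein, measured 311 and 164 on congenic replicate 1 and 1.53 to 12.6 and 1.08 to 14.1 on the others. Apoc1 measured 299 against 1.15 to 12.1. Apoc3, whose product slows the clearance of triglyceride-rich particles, measured 161, 164 and 140 in S, 758 on congenic replicate 1 and 153 and 139 on the other congenic arrays. Apoc3 was therefore the one apolipoprotein of the list with a signal of 100 or more on all arrays.

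The proteins that stay within the hepatocyte divided in 2. Cps1, the mitochondrial enzyme that starts the urea cycle, measured 27.6, 28.7 and 31.5 in S, 711 on congenic replicate 1 and 32.1 and 30.8 on the other congenic arrays, and its second probe set 137 against 7.84 to 14.7. Arg1, the enzyme that ends that cycle, measured 140 against 14.8 to 27.4. Cps1 lies on chromosome 9, the chromosome of the congenic segment, and its levels on congenic replicates 2 and 3 overlapped those of the S arrays. Fabp1, the liver fatty acid binding protein, measured 226 against 0.50 to 11.6, and Tdo2, which opens the tryptophan ring, 102 against 0.62 to 5.19.

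Hpd and Rgn, by contrast, had high signals in every pool. Hpd, an enzyme of tyrosine breakdown that the proximal tubule also holds, measured 2910, 2675 and 2487 in S, 3202 on congenic replicate 1 and 2732 and 2653 on the other congenic arrays, a difference of 0.25. Rgn (regucalcin) measured 4663, 4586 and 3856 in S, 3816 on congenic replicate 1 and 4152 and 4342 on the others, a difference of -0.17. Congenic replicate 1 was the highest of the 6 arrays for Hpd and the lowest for Rgn, with both differences well under 2-fold.

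At the 2-fold line itself, Tat, the first enzyme of tyrosine breakdown, was just inside with 18.3 on congenic replicate 1 and 0.63 to 0.99 elsewhere, a difference of 1.03 at signals that are dim on all arrays. Just outside were the second probe set of Fga at 0.71 and F2 at 0.54.

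A signal of 100 was used as a working line for expression by the kidney itself, since no detection calls were analysed here, and levels of different probe sets are not comparable beyond that. On the 5 arrays other than congenic replicate 1, 5 genes reached it on every array (Fga, F2, Apoc3, Hpd and Rgn), 2 straddled it (Rbp4 and Serpinc1) and 26 lay below it throughout. All 26 dim genes had a probe set more than 2-fold higher on congenic replicate 1. With the line at 50 instead, 8 genes counted as expressed, and the added ones were Apoh, Rbp4 and Serpinc1.

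**Figure D2:**
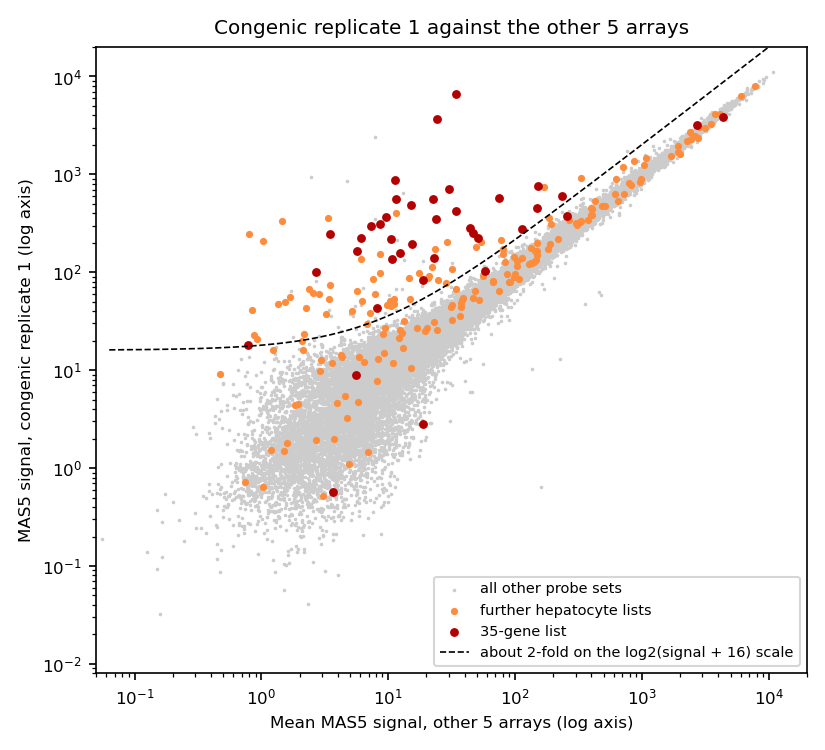
MAS5 signal on congenic replicate 1 against the mean signal of the other 5 arrays (both axes log), for the 35-gene list (dark red), the further hepatocyte lists (orange) and all other probe sets (grey), with a dashed line at about 2-fold. Of the 39 list probe sets 32 were above 2-fold, and the points with high signal on the other arrays, Hpd and Rgn, lie in the grey band.

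The wider hepatocyte program was described with 4 further lists of 176 symbols in all (other clotting and complement genes, other plasma carriers and inhibitors, enzymes, and transporters and receptors), of which 150 genes were measured on 179 probe sets. On congenic replicate 1, 50 of the 150 genes lay more than 2-fold above the other arrays. Counted by probe set, 50 of the 179 did so, where 0.380% of all probe sets did. By level, the 50 genes comprised 47 of 90 that were below a signal of 100 on all other arrays. The rest were 2 of 53 that reached it on all, and 1 of 7 between. These counts took the probe set of a gene with the largest difference. In the brightest probe set of each gene, the median difference was 0.94 for the 90 dim genes and 0.0059 for the 53 expressed ones. Some dim genes passed the 2-fold line only in a dimmer probe set, such as Mbl2 with 1.85 there and 0.42 in its brightest.

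By role, 13 of 26 further clotting and complement genes were above 2-fold. Counted by probe set, 13 of 31 were, where 0.380% of all probe sets were. They were led by Fetub at 205 against 22.8 to 44.1 and C4bpa at 67.9 against 0.70 to 6.77. C3, the central complement component, measured 175, 168 and 185 in S, 747 on congenic replicate 1 and 157 and 154 on the other congenic arrays, a gene with kidney signal that was still above 2-fold. C3 was chosen after its values were seen.

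Of the 43 further plasma carriers, inhibitors and acute phase genes 15 were above 2-fold. Counted by probe set, 15 of 51 were, where 0.380% of all probe sets were. They were led by Serpina3c at 362 against 0.79 to 13.4 and Pon1 (paraoxonase 1) at 154 against 0.39 to 13.2. Of 62 hepatocyte enzymes 19 were above 2-fold. The cytochrome P450 genes Cyp3a2 at 332 against 0.71 to 3.08 and Cyp2c6v1 at 245 against 0.25 to 1.37 led these. The list of transporters and receptors had 3 of 19, with the bile acid and organic anion carriers Slco1b2 at 86.2 against 0.88 to 12.3 and Slc10a1 at 97.8 against 11.7 to 22.0. Other liver cells had 1 of 9, Clec4f of the Kupffer cell, at 36.1 against 1.48 to 6.24. The sinusoidal endothelial gene Stab2 measured 18.2 against 1.89 to 7.04, below the line.

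Taking all 118 probe sets above 2-fold on congenic replicate 1, 32 were members, 51 carried a gene of the further liver lists, 6 carried several symbols and 4 none. The remaining 25 probe sets belonged to 22 genes outside the lists. The 10 genes with the largest differences that are no members were Rup2, Serpina3c, Cyp3a2, Cyp2c6v1, Serpina3l, Cyp2c7, Ugt2b, Ces1c, Pon1 and Cyp2c13, which are serpins, cytochromes P450, a glucuronosyltransferase, a carboxylesterase and paraoxonase besides Rup2. Rup2, on 4 probe sets, measured 2437 on congenic replicate 1 and 0.69 to 20.3 on the others in the one with the largest difference, 6.74. RefSeq lists near copies of Rup2, so its signal is uncertain as to gene. Serpina3l measured 348 against 3.30 to 11.9, Cyp2c7 401 against 4.89 to 15.7, Ugt2b 211 against 0.47 to 1.47 and Ces1c 212 against 0.51 to 21.0.

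Most markers of tissues that adjoin the kidney did not share the pattern. Among 21 pancreas and 8 blood probe sets, 0 were above 2-fold on congenic replicate 1, and of 13 for intestine 1 was, Apoa4, which is also on a liver list. The pancreas count leaves out a probe set that Amy2a3 shares with Amy1, at 45.6 against 3.27 to 7.95, above 2-fold. A probe set of Amy1 alone, a gene on no list, measured 46.0 against 1.87 to 11.5. The probe set of Amy2a3 alone measured 5.92 against 0.71 to 5.72. Probe sets for muscle (14) and fat (10) also gave 0. The fat markers had their lowest summed signal there, 7792 against 7963 to 8698. Most of that sum is Pck1, which kidney and liver also express, and the other 9 probe sets summed to 1501 against 1771 to 2456, with Adipoq at 111 against 155 to 190. The part of fat content in the result was not tested.

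Because congenic replicate 1 chose the list, the strains were compared on the other 5 arrays, 3 S against 2 congenic, with limma over 18625 probe sets. Of the members, 15 probe sets of 14 genes passed the filter on low signals, and the 24 others were too dim. At an adjusted p under 0.05 limma called 0 members and 0 probe sets in all (0.00%). At an unadjusted p under 0.05 there were 2 members, Rbp4 and Itih1, both lower in congenic pools, where 6.32% of all probe sets passed and 3.59% did so with a lower congenic level. Of the 15, 11 had a negative difference (congenic minus S), against 50.7% of all probe sets, with a median of -0.073, against -0.0022. The groups did not overlap for 4, all lower in congenic pools (Rbp4, Itih1, Fgg and Serpinc1), where 12.7% of all probe sets did so.

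Rbp4, the gene of the plasma carrier of retinol, had the smallest p of all 18625 probe sets in this comparison but did not pass the adjusted threshold. Its signals were 210, 191 and 171 in S, then 79.6 and 85.8 for congenic replicates 2 and 3, with 458 on congenic replicate 1. The means were 191 ± 19.0 (SD, n = 3) in S and 82.7 ± 4.40 (SD, n = 2) in congenic pools, a log2 difference of -1.06 (SE 0.11, limma adjusted p = 0.0575). The lowest S pool was thus about 2-fold above both congenic pools. Under the robust form of limma's variance estimate the adjusted p was 0.0369, and over 14 alternatives it ranged from 0.000440 to 0.650 and the difference from -1.19 to -0.79. Rbp4 has 1 probe set on the array and lies on chromosome 1, outside the chromosome of the congenic segment.

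The promoter of Rbp4 is shown because this probe set had the smallest p of the comparison on 5 arrays, and it lies on the minus strand at chr1:245313552-245313701 of GRCr8. Capitals mark the C/EBP pattern on the opposite strand at the first base of the window and the TATA box, which starts 50 bases before the gene start, as in Fgg above.
Rbp4: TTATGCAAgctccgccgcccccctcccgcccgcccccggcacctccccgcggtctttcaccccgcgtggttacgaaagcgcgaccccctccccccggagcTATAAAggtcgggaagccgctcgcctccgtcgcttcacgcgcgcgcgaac

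With all 6 arrays in the fit, Rbp4 had a log2 difference of -0.31 (SE 0.48), and congenic replicate 1 lay above every S pool. Leaving out congenic replicate 2 or 3 in place of 1 turned its sign, to 0.092 and 0.047. The summed signal of the 26 dim genes came to 577, 649 and 636 in the S pools, against 560 and 545 for congenic replicates 2 and 3. This sum was also lower in the congenic pools, by much less than Rbp4. Single members went either way, more of them down. In both of these congenic pools Fgg, Itih1, Hp, Itih3 and Vtn were lower than in every S pool, and Hpx and Ahsg were higher. A dimmer probe set of Fgb and of Apob was also lower, and another of Fgb higher. Among all probe sets that passed the filter, 12.7% were lower without overlap and 10.8% higher. All of these members but Fgg and Itih1 were below the filter and so outside that share. What these dim signals measure, and whether the sum bears on Rbp4, was not tested. Rbp4 is also made by fat cells, and of 8 tested fat probe sets 3 had a positive and 5 a negative difference on the same 5 arrays, with a median of -0.029. Without Pck1 they were 2 and 5, with a median of -0.040, and Adipoq was at -0.076. The largest fat difference was that of Ucp1, at -0.43 (SE 0.36), in the direction of Rbp4, and the part of fat in the level of Rbp4 was not tested. Ttr, the partner of its protein in plasma, was too dim for the filter there.

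**Figure D3:**
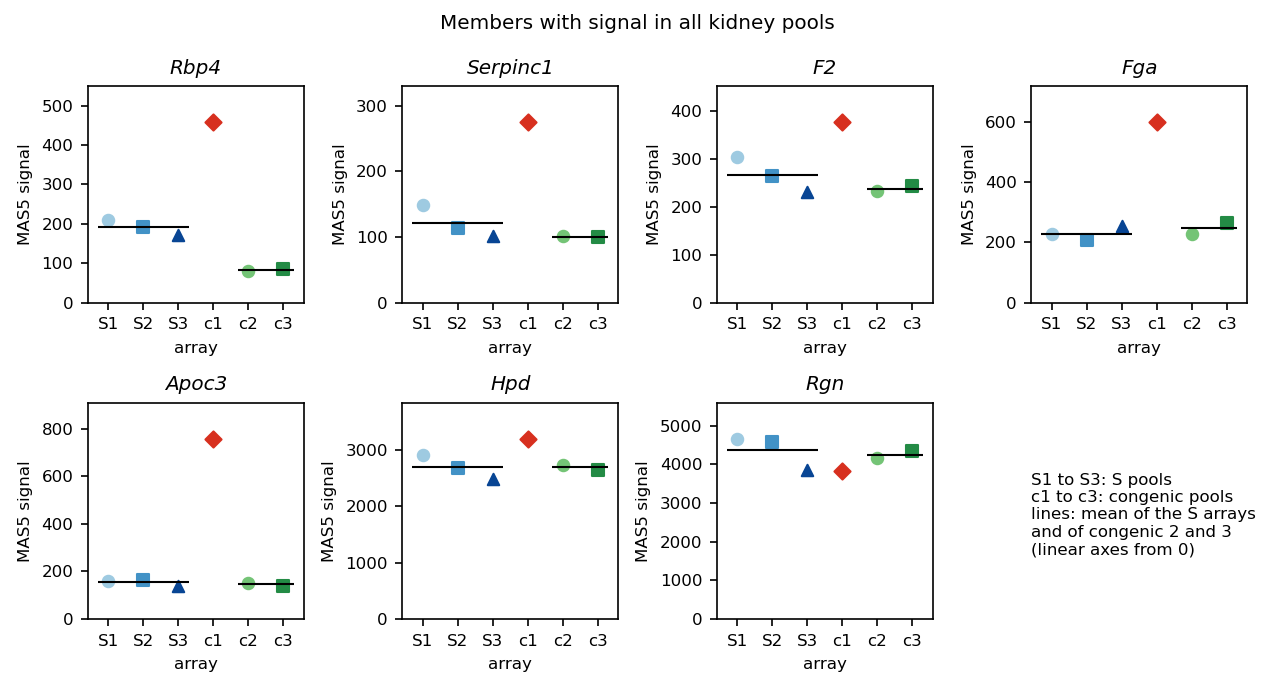
MAS5 signal (linear axes from 0) on each array for the 5 genes at 100 or more in every kidney pool and for Rbp4 and Serpinc1, with lines at the mean of the 3 S arrays and of congenic replicates 2 and 3. Rbp4 separates the S arrays (171 to 210) from congenic replicates 2 and 3 (79.6 and 85.8), and congenic replicate 1 is the highest array in all panels but that of Rgn.

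Of the other members with kidney signal, none differed between the strains on the 5 arrays by limma's adjusted p. Serpinc1 had a log2 difference of -0.22 (SE 0.14), F2 of -0.15 (SE 0.11), Apoc3 of -0.073 (SE 0.10) and Fga of 0.10 (SE 0.11). Hpd was at 0.0035 (SE 0.071) and Rgn at -0.036 (SE 0.082), and these 2 signs changed under some alternatives. The adjusted p of the 6 genes ran from 0.807 for Serpinc1 to 0.995 for Hpd. Itih1 measured 51.2, 61.4 and 58.4 in S and 44.0 and 40.5 in the 2 congenic pools, a difference of -0.32 (SE 0.13, limma adjusted p = 0.754).

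With congenic replicate 1 included, 33 member probe sets passed the filter, 18 of them through the signal of that array alone. Over all 18625 probe sets limma called 0 (0.00%), with 6.61% at an unadjusted p under 0.05. The array that chose the list is in this fit, so the members' values in it are a description with no test. Alb had a log2 difference of 2.03 (SE 1.57) with the array and -0.44 (SE 0.27) without it in its brighter probe set. For Cps1 the values were 1.38 (SE 0.83) and 0.069 (SE 0.14), and for Apoc3 0.68 (SE 0.48) and -0.073. For these 3 genes both the difference and its SE were larger with the array than without it.

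**Figure D4:**
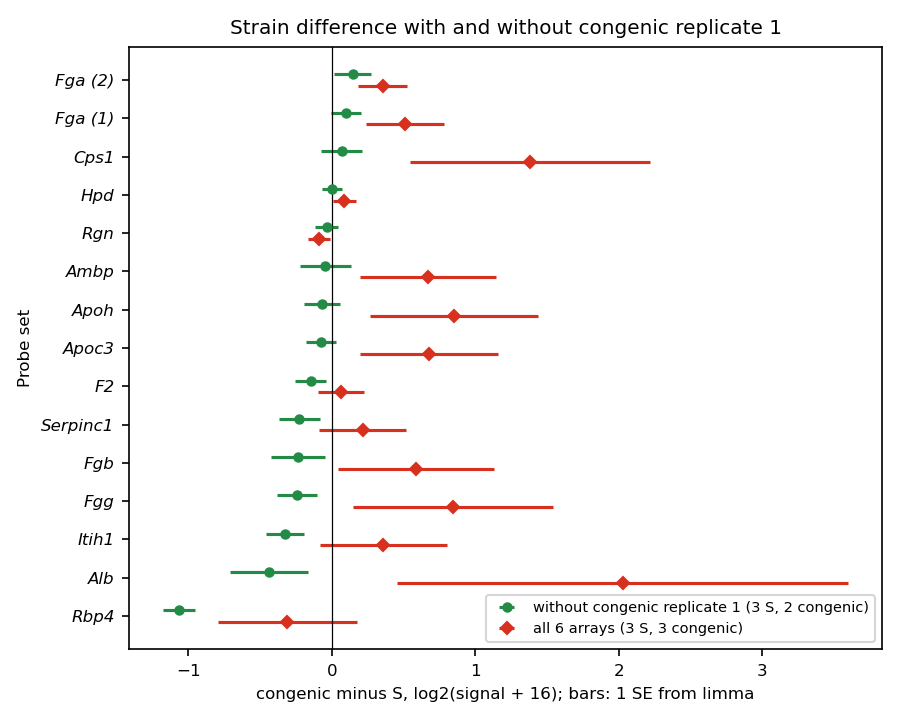
Log2 difference between congenic and S arrays with 1 SE from limma, for the 15 member probe sets tested without congenic replicate 1 and for the same probe sets with all 6 arrays. Without the array the bars are narrower for all but Rgn, and all differences but that of Rbp4 are within 0.44 of 0.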

How the data were processed

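Kidney RNA of 3 S and 3 congenic pools was measured on 1 array each, and the 6 arrays were grouped by the genotype label. The deposited values are intensities, 1 linear signal per probe set made by the authors with MAS5, per the submitters' processing notes, and the values show arrays scaled to one mean after trimming 2% at each end. A shift common to most transcripts is therefore not visible. Of 31099 probe sets 57 controls were left out, and 20826 had 1 gene symbol in the platform annotation, updated by gene ID to GRCr8. Differences were taken on log2(signal + 16). Strains were compared with limma 3.58.1 in R 4.3.3 (lmFit, eBayes with trend, 2-sided, Benjamini-Hochberg over 18625 probe sets above the 40th percentile of mean signal), which was tested on simulated data. The precision is limited by the number of arrays, and the median SE without congenic replicate 1 was 0.12. An exact permutation test cannot go below 0.2 for 3 against 2 arrays, or below 0.1 for 3 against 3. The pools hold different rats.

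The members and lists were chosen with earlier results of these data known. Named were all members, the 10 other genes with the largest difference on congenic replicate 1, and the 2 leading genes of each liver list. Alternatives covered pseudocount, filter, scaling, variance model, replicate block and single arrays left out. The replicate numbers did not pair the arrays: the correlations of same-numbered arrays' deviations from their group means were 0.037, 0.014 and 0.021.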

Additional observations from a re-analysis of the deposited data

How the results depend on the processing

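The count of 32 member probe sets above 2-fold on congenic replicate 1 stayed within 1.5 times under all 15 alternatives run, and was 32 with each other array left out. Genes with kidney signal were 8 with the line at 50. The members' share of the signal of congenic replicate 1 was 0.269% without Alb and 0.281% for the dim genes alone. Without congenic replicate 1, limma called 1 probe set (Rbp4, difference -1.06) with robust variances, 37 with a replicate block (Rbp4 at -0.998 among them, Rgn at 0.014), and 0 to 18 with a further array left out, the 18 without congenic replicate 2. That fit sets the S arrays against congenic replicate 3 alone, the array with adrenal transcripts, so the spread comes from S and the lone array is assumed to vary likewise. The replicate numbers share no more than a number, so the block is not read further. Without congenic replicate 1, Rbp4 ranged from -1.13 to -0.998 with a further array left out. With all 6 arrays as the start, where 0 to 1 probe sets were called, it ranged from -1.06 to 0.092. Hpd was at -0.015 with quantile normalization and at -0.051 to 0.061 with an array left out, and Rgn at -0.12 to 0.014. The cause was not tested.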

Other observations

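Several liver enzymes of the rat depend on sex, and the pools came from males. The following genes were chosen after their values were seen. Cyp2c13 and Cyp3a2, cytochromes P450 of male liver, measured 135 and 332 on congenic replicate 1, with 4.03 to 8.59 and 0.71 to 3.08 on the other 5 arrays. Cyp2c12, the form of female liver, measured 0.52 there and 0.49 to 11.5 elsewhere. Cyp2c11, another male form, had signal in kidney pools, at 177 on congenic replicate 1 and 76.6 to 207 on the other arrays, and did not stand apart. Obp3, an odorant-binding protein gene, measured 42.8 against 0.59 to 4.85 in its higher probe set. Other genes of the enzyme list, whose dependence on sex was not looked at, were also high or flat. Cyp2c7 measured 401 against 4.89 to 15.7. Mup5 measured 15.9 against 1.05 to 3.24 in its highest probe set, and 0.64 and 1.97 on congenic replicate 1 in the others. Whether these levels follow sex was not tested, since all pools came from males.

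Among liver genes with strong kidney signal, Apoe, which clears lipoprotein remnants, measured 1193 on congenic replicate 1 and 612 to 756 on the other arrays, a difference of 0.75. The transcription factor Hnf4a measured 3007 there and 2967 to 3271 elsewhere in its brightest probe set. Its dimmer probe sets measured 82.4 against 58.3 to 80.9 and 85.3 against 89.2 to 133, and so moved in opposite directions.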
